A study of Mus musculus with 12 samples.

Results

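Described here are 9 genes for transcription factors that T-cell receptor signals induce or activate, Nr4a1, Nr4a2, Nr4a3, Egr1, Egr2, Egr3, Nfatc1, Nfatc2 and Nfatc3. They were chosen by name from the 52635 genes of the deposited expression table, and each was found there once. The table holds RNA-seq of naive CD4 T cells from C57BL/6 mice, an inbred laboratory strain, after 24 h of stimulation with antibodies to CD3 and CD28. All 12 cultures received the cytokines IL-6, IL-1β, IL-21, IL-23, TNFα and TGF-β1, which favour the interleukin-17-producing Th17 state, together with antibodies that block IFNγ and IL-4. The medium held serum stripped of retinoids with charcoal, and retinoic acid (RA), the vitamin A derivative that activates RARα, was added at 10 nM or left out. The 6 groups of 2 libraries were RARα TG with RA, RARα TG without RA, RARα KO with RA, RARα KO without RA, wild type (WT) with RA and WT without RA. What construct and promoter the TG label stands for, and what allele the KO label, is not given in the sources used. Every culture was stimulated, so the values are levels in activated cells and not induction over resting cells.

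NFAT proteins rest in the cytoplasm in phosphorylated form. Calcium entering the T cell activates the phosphatase calcineurin, which strips these phosphates, and NFAT then enters the nucleus and binds DNA alone or beside AP-1. EGR and NR4A genes are immediate-early genes, which the same signal switches on without new protein synthesis. EGR proteins are zinc-finger factors, of which EGR2 and EGR3 restrain T-cell responses and take part in anergy, and NR4A proteins are orphan nuclear receptors known in T cells for negative selection, regulatory T-cell identity and exhaustion.

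The depth by which the libraries had been scaled, read from the step of 1 read in low genes, was 16289969 to 25534588 reads. The 9 genes rested on 402 to 9291 recovered reads per library, and the exact Poisson 95% interval of 1 library reached from 2.04 to 9.90% on either side of its value, which covers counting error only. In 33 of 54 pairs of replicates (9 genes in 6 groups) these intervals did not overlap, so the libraries differed there by more than counting. Nothing in the labels ties the replicates to separate animals, and the p-values therefore speak only of the spread among these libraries. All 8 T-cell markers were at or above 1 FPKM in every library and summed to 996 to 1482 FPKM, against 1.55 to 4.18 FPKM for the 2 CD8 markers. Rara stood at 126 and 119 FPKM in TG with RA and 72.8 and 63.3 FPKM in TG without RA. The libraries labelled KO had 16.8 and 17.6 FPKM of Rara with RA, against 12.3 and 14.2 FPKM in WT, and 19.5 and 19.3 FPKM without RA, against 16.5 and 18.9 FPKM in WT. The gene-level value thus does not show a loss of Rara in the libraries labelled KO, whatever their allele. By Xist and Y-linked transcripts the libraries labelled KO were all female, those of WT all male and those of TG of 1 sex per replicate number (1 male, 2 female), so sex and genotype cannot be told apart between KO and WT. The 2 replicates of a TG group thus did not come from the same animal. The TG groups, with 1 library of each sex, also differ in part by sex from the all-male WT groups.

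With RA, Egr2 and Nfatc1 were higher in TG and in WT. In TG, Nfatc3 and Egr3 were also higher and Nr4a2 was lower. None of the 9 genes passed the test in the libraries labelled KO. Each difference is on the scale log2(FPKM + 1), where FPKM is the fragment count per exon length and library depth, and a gene passed when its limma p, adjusted by Benjamini-Hochberg over 11922 genes, was under 0.05. In TG 5 of the 9 genes passed, 4 higher and 1 lower, where 39.1% of all tested genes passed. Their median over the 9 genes was 0.10, against -0.02 over all tested genes. In WT 2 of 9 passed, both higher, where 10.1% of all tested genes passed, and the medians were 0.21 and 0.02. Among the libraries labelled KO 0 of 9 passed by limma, where 0.143% of all tested genes passed, and 0 by limma voom on recovered reads. The medians were -0.02 and 0.01. At an unadjusted p under 0.05 there were 0 of the 9 genes, against 1280 of all 11922. The plot of RA effects sets the 3 genotypes side by side.

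**Figure D1:**
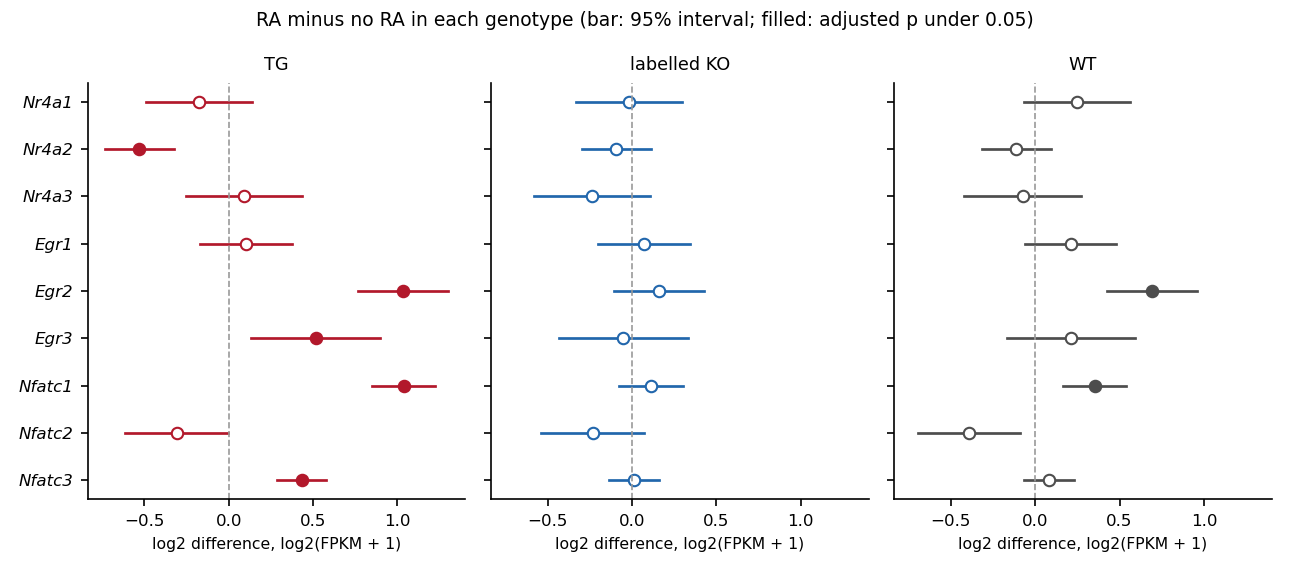
Difference with RA minus without RA on the log2(FPKM + 1) scale for each of the 9 genes (rows) in TG, in the libraries labelled KO and in WT, with 95% intervals; filled points passed at an adjusted p under 0.05. Egr2 and Nfatc1 lie near 1 in TG (1.03 and 1.04), at 0.16 and 0.11 in the libraries labelled KO, and at 0.69 and 0.35 in WT.

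Among the NFAT genes, Nfatc1 (ENSMUSG00000033016, chromosome 18) encodes NFATc1, which is made in resting T cells at a low level and whose gene is itself switched on by NFAT during activation. Nfatc1 stood at 24.5 and 22.2 FPKM in TG with RA, against 11.9 and 9.95 FPKM in TG without RA. Its 2 highest and its 2 lowest libraries of the 12 were thus those of TG, with and without RA. The difference was 1.04 ± 0.08 (log2 ± SE, limma adjusted p = 2.9e-05), and it passed under each alternative tried and without any 1 TG library. In WT, Nfatc1 stood at 18.7 and 19.6 FPKM with RA, against 14.7 and 14.8 FPKM without RA. The WT groups did not overlap and differed by 0.35 ± 0.08 (adjusted p = 0.032), but the call was lost when any of the 4 WT libraries was left out (differences of 0.32 to 0.38). Nfatc1 in the libraries labelled KO stood at 20.6 and 20.8 FPKM with RA and 19.9 and 18.3 FPKM without RA. These did not overlap either, and the difference of 0.11 had an interval of -0.07 to 0.30 (adjusted p = 0.69).

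The RA effect on Nfatc1 was larger in TG than in WT by 0.69 ± 0.12 (limma adjusted p = 0.0098). By limma on FPKM, Nfatc1 was the 1 gene of the 9 whose RA effect passed this test of the difference, where 7.48% of all tested genes passed, and it passed without any 1 of the 8 libraries. The corresponding difference for Nfatc3 was 0.35 ± 0.09 (adjusted p = 0.057), which passed by limma voom on recovered reads (0.37, adjusted p = 0.045). For Nr4a2 it was -0.42 ± 0.13 (adjusted p = 0.094). For Egr2 it was 0.34 ± 0.17 (adjusted p = 0.28), with an interval of -0.03 to 0.72, so a larger rise of Egr2 in TG than in WT was not shown. Between the libraries labelled KO and WT, 0 of 9 RA effects passed by limma, where 0.00839% of all tested genes passed, and 0 by limma voom. At an unadjusted p under 0.05 there was 1 of the 9, against 640 of all 11922 genes. That gene was Egr2, with -0.53 ± 0.17 (adjusted p = 0.65) and an interval of -0.91 to -0.16. The value for Nfatc1 was -0.24 ± 0.12 (adjusted p = 0.99). The TG and WT, and the KO and WT, comparisons share the 4 WT libraries.

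Nfatc3 (ENSMUSG00000031902, GRCm38 chr8:106058840-106130537, plus strand) encodes an NFAT factor present in thymocytes and in resting T cells. Nfatc3 stood at 30.0 and 31.2 FPKM in TG with RA, against 23.4 and 21.5 FPKM in TG without RA. The groups did not overlap, and the difference of 0.43 ± 0.06 (limma adjusted p = 0.00099) passed without any 1 TG library. The libraries labelled KO held 31.8 and 29.1 FPKM of it with RA and 30.6 and 29.8 FPKM without RA. In WT it stood at 30.3 and 27.9 FPKM with RA, against 27.8 and 27.0 FPKM without RA, a difference of 0.08 ± 0.07 (adjusted p = 0.49). The 2 TG libraries without RA were the lowest of all 12, and the other 10 spanned 27.0 to 31.8 FPKM. Exons of Nfatc3 overlap those of Esrp2 on the opposite strand. Esrp2 stood at 0.0780 to 0.311 FPKM, and whether the counting used strand is not given in the sources used.

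Nfatc2 (ENSMUSG00000027544, GRCm38 chr2:168476410-168601657, minus strand) encodes NFATc2, the main NFAT protein of resting T cells. Nfatc2 stood at 9.21 and 11.4 FPKM in TG with RA, against 14.5 and 11.6 FPKM in TG without RA. For the libraries labelled KO its values were 12.2 and 14.0 FPKM with RA and 14.1 and 17.1 FPKM without RA. In WT it stood at 9.93 and 10.0 FPKM with RA, against 13.4 FPKM in both libraries without RA. Within each genotype both libraries with RA were lower than both without RA, yet no difference passed. It was -0.31 ± 0.13 in TG (limma adjusted p = 0.0996), -0.23 ± 0.13 in the libraries labelled KO (adjusted p = 0.58) and -0.39 ± 0.13 in WT (adjusted p = 0.103).

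The ratio of Nfatc1 to Nfatc2 in FPKM was 2.66 and 1.94 in TG with RA, against 0.816 and 0.861 in TG without RA. It was 1.69 and 1.49 with RA and 1.41 and 1.07 without RA in the libraries labelled KO, and 1.88 and 1.96 with RA against 1.10 and 1.11 without RA in WT. In each genotype both libraries with RA had the higher ratio, a difference that was not tested, and the TG libraries without RA were the only ones of the 12 with less Nfatc1 than Nfatc2. Nfatc3 was the highest of the 3 in every library, at 45.5 to 51.4% of their summed FPKM.

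**Figure D2:**
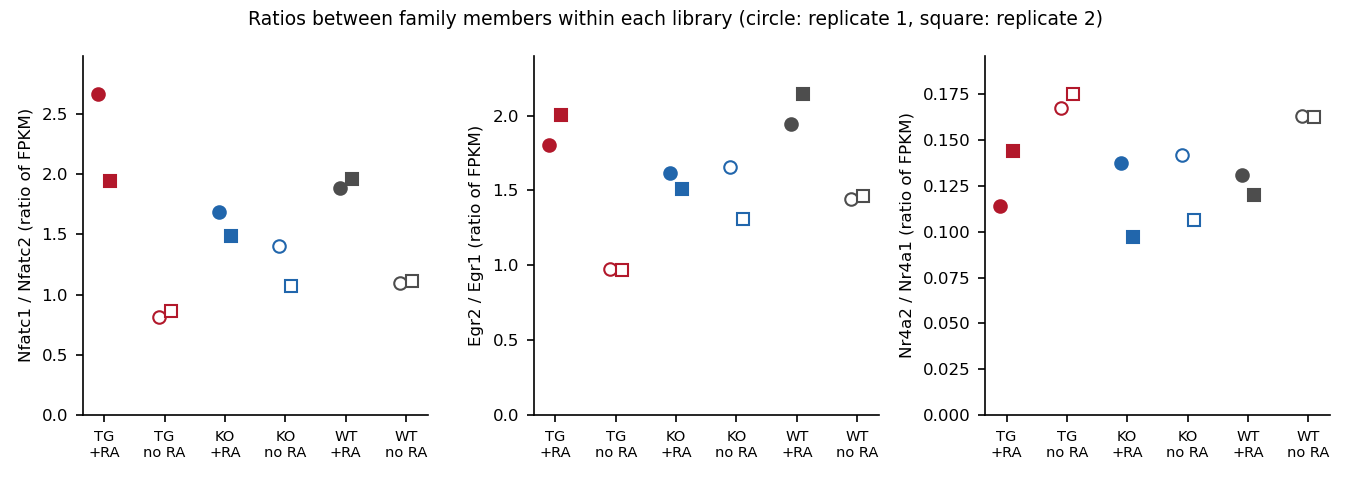
Ratios of FPKM between 2 genes of 1 family within each library, by group, with replicate 1 as a circle and replicate 2 as a square. Nfatc1 to Nfatc2 and Egr2 to Egr1 are lowest in TG without RA, at 0.816 to 0.861 and 0.967 to 0.975, and Nr4a2 to Nr4a1 is highest there, at 0.168 and 0.175.

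Egr2 (ENSMUSG00000037868, GRCm38 chr10:67535475-67542188, plus strand) showed the widest range of the 9 genes, 2.92-fold between its lowest and highest library. One of its RefSeq start sites is shown because Egr2 passed in both TG and WT and because the window holds the kind of site by which immediate-early genes are switched on. Egr2 has 5 windows in the RefSeq table of GRCm38.p6, each 300 bases long from 250 bases before the start to 50 after it, and the window at chr10:67537619-67537918, plus strand, is printed. Capitals mark a CArG box, the site of serum response factor, and matches on either strand to TGACG, the core of the cAMP response element.
Egr2: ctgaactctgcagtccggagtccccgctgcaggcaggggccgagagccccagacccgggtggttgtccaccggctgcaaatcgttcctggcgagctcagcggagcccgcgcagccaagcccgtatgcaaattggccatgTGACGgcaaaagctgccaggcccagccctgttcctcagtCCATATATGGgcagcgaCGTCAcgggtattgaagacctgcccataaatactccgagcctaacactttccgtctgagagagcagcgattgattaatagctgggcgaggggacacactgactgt
A CArG box stood in 1.63% of the 32851 promoters of the table and TGACG in 20.8%. These shares are per window, and the printed window was picked from the 5 for these sites. The window at chr10:67535249-67535548 holds neither, and that at chr10:67537316-67537615 holds a CArG box without TGACG. The remaining windows overlap the printed one and hold both. The hexamer AGGTCA that retinoid receptors bind, found on either strand in 16.3% of promoters, and the repeat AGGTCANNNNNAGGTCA, in 0.00913%, matched in none of the 12 windows of the 6 genes that the table holds, Nr4a1, Nr4a2, Nr4a3, Egr2, Nfatc2 and Nfatc3. That says only that these letters are not in these windows.

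In TG, Egr2 stood at 37.9 and 35.8 FPKM with RA, against 18.2 and 16.8 FPKM without RA. The groups were far apart beside the spread within them, and the difference was 1.03 ± 0.12 (limma adjusted p = 0.00021). It passed under each alternative tried. In WT, Egr2 stood at 38.7 and 49.0 FPKM with RA, against 25.8 and 27.5 FPKM without RA. The WT groups did not overlap and differed by 0.69 ± 0.12 (adjusted p = 0.0092), but the adjusted p was 0.056 without replicate 1 of WT without RA (0.64) and 0.11 when the fit held the WT libraries alone. Egr2 in the libraries labelled KO stood at 33.5 and 38.9 FPKM with RA and 34.3 and 30.3 FPKM without RA. Those groups overlapped, and the difference of 0.16 had an interval of -0.11 to 0.42 (adjusted p = 0.70).

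Egr3 (ENSMUSG00000033730, GRCm38 chr14:70077203-70082614, plus strand) encodes a factor that overlaps with EGR2 in its roles in T cells. Egr3 stood at 11.2 and 9.46 FPKM in TG with RA, against 8.0 and 5.96 FPKM in TG without RA. The groups did not overlap, and the difference of 0.51 ± 0.17 passed narrowly (limma adjusted p = 0.038). It did not pass without replicate 2 of TG without RA (0.33), without replicate 1 of TG with RA (0.40) or without replicate 2 of TG with RA (0.63), nor with no filter on low values (adjusted p = 0.086) or with only the TG libraries in the fit (0.068). Egr3 stood at 10.8 and 13.6 FPKM with RA and 12.4 and 12.8 FPKM without RA in the libraries labelled KO. In WT it stood at 13.9 and 15.9 FPKM with RA, against 11.1 and 14.5 FPKM without RA, and these overlapped (0.21 ± 0.17, adjusted p = 0.48).

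Egr1 (ENSMUSG00000038418, chromosome 18), the founding member of the family, did not pass in any of the 9 comparisons. Egr1 stood at 21.1 and 17.8 FPKM in TG with RA and 18.6 and 17.4 FPKM in TG without RA. It stood at 20.7 and 25.7 FPKM with RA and 20.7 and 23.2 FPKM without RA in the libraries labelled KO, and at 19.9 and 22.9 FPKM with RA against 17.9 and 18.8 FPKM without RA in WT. The RA difference was 0.10 ± 0.12 in TG (limma adjusted p = 0.54) and 0.21 ± 0.12 in WT (adjusted p = 0.32). Within libraries, the ratio of Egr2 to Egr1 was 1.80 and 2.01 in TG with RA, against 0.975 and 0.967 in TG without RA. In WT it was 1.94 and 2.14 with RA, against 1.44 and 1.47 without RA, and in the libraries labelled KO the 4 values overlapped between 1.31 and 1.66. The 3 EGR genes summed to 70.2 and 63.0 FPKM in TG with RA, against 44.8 and 40.1 FPKM in TG without RA, the 2 lowest sums of the 12 libraries.

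Transcripts of other cells were present beside these genes. Of the 9 B-cell markers tested, 1 was higher with RA in TG and 8 did not pass, where 39.1% of all tested genes passed. In WT and in the libraries labelled KO, 0 of the 9 passed with RA, where 10.1% and 0.143% of all tested genes passed. The 10 B-cell markers summed to 109 and 107 FPKM in TG with RA, against 31.4 and 34.4 FPKM in TG without RA, with 3 and 4 of the 10, against 1 and 4, at or above 1 FPKM. Most of that sum was Ighm, at 101 and 95.9 FPKM against 27.5 and 27.6 FPKM. The other 9 summed to 7.80 and 10.6 FPKM in TG with RA, against 3.85 and 6.79 FPKM in TG without RA. In WT the 10 summed to 55.4 and 125 FPKM with RA, against 29.6 and 102 FPKM without RA, and in the libraries labelled KO to 36.4 and 64.4 FPKM with RA, against 30.3 and 51.8 FPKM without RA. None of the 10 was listed at 0 in any library. Cd74, the class II invariant chain, was higher in replicate 2 than in replicate 1 in all 6 groups. Egr2 was higher in replicate 2 in WT at both doses and in the KO-labelled libraries with RA, and lower in replicate 2 in TG at both doses and in the KO-labelled libraries without RA. The part of these cells in the values of Egr2, Nfatc1 and the other members was not tested. In RNA from whole cultures, fewer cells of a type and less RNA per cell cannot be told apart.

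The RefSeq windows of the NR4A genes are shown together because each holds 4 matches to TGACG, on either strand, while Nr4a2 alone of the 3 passed a test in these data. They lie at chr15:101266596-101266895 (plus strand) for Nr4a1, chr2:57123954-57124253 (minus strand) for Nr4a2 and chr4:48045055-48045354 (plus strand) for Nr4a3, on GRCm38.p6. Capitals mark the matches.
Nr4a1: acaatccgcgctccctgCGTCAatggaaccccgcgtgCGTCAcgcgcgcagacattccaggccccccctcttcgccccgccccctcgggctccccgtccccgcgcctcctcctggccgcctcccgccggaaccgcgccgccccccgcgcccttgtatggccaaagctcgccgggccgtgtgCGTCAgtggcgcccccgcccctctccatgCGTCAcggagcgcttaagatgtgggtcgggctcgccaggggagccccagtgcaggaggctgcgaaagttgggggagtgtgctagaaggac
Nr4a2: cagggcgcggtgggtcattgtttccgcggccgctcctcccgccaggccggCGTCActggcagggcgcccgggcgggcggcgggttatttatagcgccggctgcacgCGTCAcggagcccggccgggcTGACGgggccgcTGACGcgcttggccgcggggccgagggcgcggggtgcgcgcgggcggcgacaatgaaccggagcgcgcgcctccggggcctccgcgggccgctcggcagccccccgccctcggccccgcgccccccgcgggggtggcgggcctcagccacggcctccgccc
Nr4a3: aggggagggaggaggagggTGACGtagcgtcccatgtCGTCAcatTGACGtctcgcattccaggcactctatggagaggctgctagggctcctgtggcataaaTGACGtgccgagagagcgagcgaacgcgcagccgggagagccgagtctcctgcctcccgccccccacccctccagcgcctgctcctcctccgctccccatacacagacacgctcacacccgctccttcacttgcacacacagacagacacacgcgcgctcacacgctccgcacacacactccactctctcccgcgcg
At least 4 matches, a number taken from these same windows, stood in 0.231% of the promoters of the table. Any match to TGACG stood in 20.8%. The full palindrome TGACGTCA, which contains TGACG and stood in 1.79% of promoters, and the NR4A monomer site AAAGGTCA, in 1.51%, matched in none of the members' windows. The EGR site GCGNGGGCG, in 5.55% of promoters, matched once in Nr4a1 and once in Nr4a2. The short NFAT core GGAAA, in 61.3% of promoters, matched in Nr4a2 (1), in 4 of the 5 Egr2 windows (3 in 1 of them and 1 in each of the others), in both Nfatc2 windows (3 and 1) and in 1 of the 2 Nfatc3 windows (1). A match is a description of the letters and not a shown binding site.

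**Figure D3:**
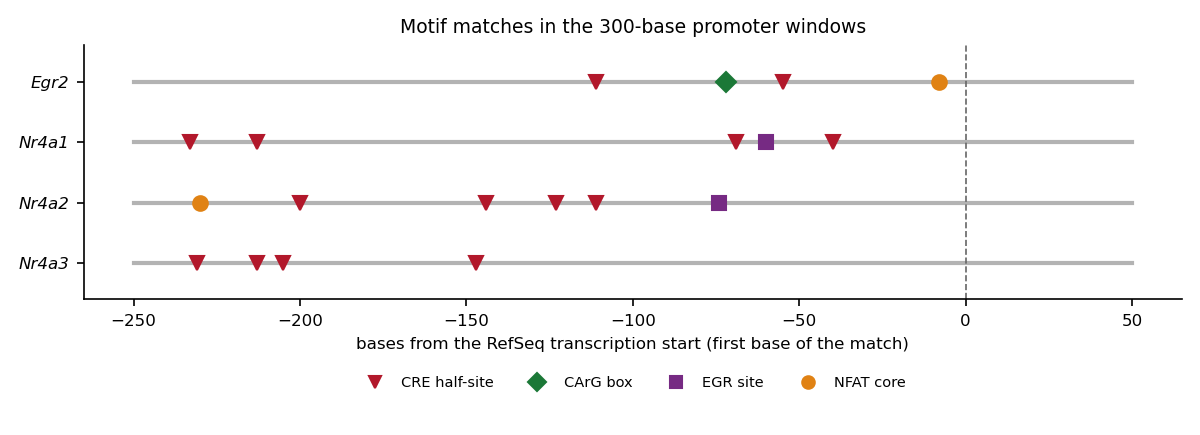
Positions of motif matches, on either strand, in the 300-base RefSeq windows of Egr2, Nr4a1, Nr4a2 and Nr4a3, by distance in bases from the transcription start (dashed line). Each NR4A window holds 4 matches to the core of the cAMP response element, and the Egr2 window holds 2 with a CArG box between them.

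Nr4a2 (ENSMUSG00000026826, GRCm38 chr2:57106830-57124003, minus strand) encodes NURR1 and was the lowest of the 9 genes in FPKM when averaged over the libraries. Nr4a2 stood at 5.90 and 6.25 FPKM in TG with RA, against 9.45 and 8.97 FPKM in TG without RA. The groups did not overlap, and Nr4a2 fell by 0.53 ± 0.09 (limma adjusted p = 0.0019), a call kept under each alternative tried. It was the 1 gene of the 9 that was lower with RA past the threshold. Its values in the libraries labelled KO were 6.85 and 6.27 FPKM with RA and 7.77 and 6.41 FPKM without RA. In WT it stood at 7.91 and 8.56 FPKM with RA, against 8.58 and 9.39 FPKM without RA, a difference of -0.11 ± 0.09 (adjusted p = 0.49).

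Nr4a1 (ENSMUSG00000023034, GRCm38 chr15:101254269-101274795, plus strand) encodes NUR77, widely used as a reporter of T-cell receptor signal strength. It was the highest of the 9 genes in every library, and made up 67.5 to 75.2% of the summed NR4A FPKM. Nr4a1 stood at 51.7 and 43.5 FPKM in TG with RA and 56.4 and 51.2 FPKM in TG without RA. It stood at 49.9 and 64.6 FPKM with RA and 54.7 and 60.4 FPKM without RA in the libraries labelled KO. In WT it stood at 60.4 and 71.2 FPKM with RA, against 52.6 and 57.7 FPKM without RA. The groups overlapped in TG and in the libraries labelled KO but not in WT. No RA difference passed: it was -0.18 ± 0.14 in TG (limma adjusted p = 0.35), -0.02 ± 0.14 in the libraries labelled KO (adjusted p = 0.98) and 0.25 ± 0.14 in WT (adjusted p = 0.31).

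Nr4a3 (ENSMUSG00000028341, GRCm38 chr4:48045153-48086447, plus strand) encodes NOR1. Nr4a3 stood at 13.9 and 13.4 FPKM in TG with RA and 13.6 and 12 FPKM in TG without RA. It stood at 10.6 and 15.0 FPKM with RA and 13.7 and 16.5 FPKM without RA in the libraries labelled KO, and at 15.2 and 17.5 FPKM with RA and 16.7 and 17.8 FPKM without RA in WT. The groups with and without RA overlapped in every genotype, and the differences lay between -0.24 and 0.09 (limma adjusted p of 0.63 to 0.81). Within libraries, the ratio of Nr4a2 to Nr4a1 was 0.114 and 0.144 in TG with RA, against 0.168 and 0.175 in TG without RA. In WT it was 0.131 and 0.120 with RA, against 0.163 in both libraries without RA, while in the libraries labelled KO the values with and without RA overlapped.

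Without RA, TG cells had less Egr2, Egr3 and Nfatc1 than WT cells, and with RA they had less Nr4a2. Without RA, 3 of the 9 genes passed, all lower in TG, where 4.31% of all tested genes passed, and the median over the 9 was -0.28, against 0.01 over all tested genes. Egr2 averaged 17.5 ± 0.969 FPKM in TG and 26.6 ± 1.25 FPKM in WT (SD, n = 2 each), a difference of -0.58 ± 0.12 (limma adjusted p = 0.031). Egr3 averaged 6.98 ± 1.44 FPKM in TG and 12.8 ± 2.36 FPKM in WT, a difference of -0.79 ± 0.17 (adjusted p = 0.036). Nfatc1 averaged 10.9 ± 1.35 FPKM in TG and 14.8 ± 0.0599 FPKM in WT, a difference of -0.41 ± 0.08 (adjusted p = 0.030). The libraries did not overlap for any of these 3 genes. None of the 3 passed with no filter on low values or with only these 4 libraries in the fit. Egr2 also did not pass without any 1 of the 4 libraries (-0.63 to -0.53), and Egr3 and Nfatc1 did not pass without replicate 1 of WT (-0.97 and -0.42), replicate 2 of WT (-0.62 and -0.41) or replicate 2 of TG (-0.61 and -0.30). Nfatc3, at 22.5 ± 1.4 FPKM in TG and 27.4 ± 0.548 FPKM in WT, differed by -0.28 ± 0.06 (adjusted p = 0.052) and passed by limma voom on recovered reads (-0.29, adjusted p = 0.035).

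With RA, 1 of the 9 genes passed between TG and WT, where 11.5% of all tested genes passed, and the medians were -0.24 and -0.02. That gene was Nr4a2, at 6.07 ± 0.252 FPKM in TG and 8.24 ± 0.458 FPKM in WT (SD, n = 2 each), which differed by -0.38 ± 0.09 (limma adjusted p = 0.028). The groups did not overlap, but the call was lost without any 1 of the 4 libraries (-0.43 to -0.33), with no filter and with only these libraries in the fit. Nfatc1 differed by 0.27 ± 0.08 without passing (adjusted p = 0.069). Nr4a1 differed by -0.46 ± 0.14 (adjusted p = 0.070) and Egr3 by -0.49 ± 0.17 (adjusted p = 0.10), and for both genes the 2 TG libraries lay below the 2 WT libraries. The 5 NK-cell markers, given beside these differences, summed to 38.7 and 38.2 FPKM in TG with RA against 12.7 and 30.3 FPKM in WT with RA, and to 45.3 and 51.8 FPKM in TG without RA against 12.8 and 25.5 FPKM in WT without RA. Of the 5, 2 in each TG library with RA and 1 and 2 in those without RA reached 1 FPKM, against 2 or 3 in WT. Of the 3 that were tested, 1 was higher in TG at each dose and 2 did not pass, and the median of the 3 was -0.50 with RA and -0.58 without RA. The gene that passed, looked up after these values were seen, was Nkg7 with RA and Klrd1 without RA. Klrb1c, which encodes NK1.1, was at 0 in each TG library without RA and each WT library with RA. Their part in the TG to WT differences was not tested.

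Between the libraries labelled KO and WT, 0 of the 9 genes passed at either dose by limma and 0 by limma voom, where 0.881% of all tested genes passed with RA and 1.74% without RA by limma. At an unadjusted p under 0.05 there were 3 of the 9 at each dose, against 1320 of all 11922 genes with RA and 1808 without RA. Without RA the lowest adjusted p was that of Nfatc1, at 19.1 ± 1.14 FPKM in the libraries labelled KO and 14.8 ± 0.0599 FPKM in WT (SD, n = 2 each), a difference of 0.35 ± 0.08 (limma adjusted p = 0.088). Nr4a2 differed by -0.29 ± 0.09 with RA (adjusted p = 0.26) and without RA by -0.31 ± 0.09 (adjusted p = 0.15). At each dose both libraries labelled KO lay below both WT libraries. Egr2 differed by -0.26 ± 0.12 with RA (adjusted p = 0.45), where the libraries overlapped, and without RA by 0.27 ± 0.12 (adjusted p = 0.33), where they did not. Nfatc2 differed by 0.36 ± 0.13 with RA (adjusted p = 0.35), without overlap. A p that misses the threshold does not show that these genes were alike in the KO-labelled and WT cells.

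**Figure D4:**
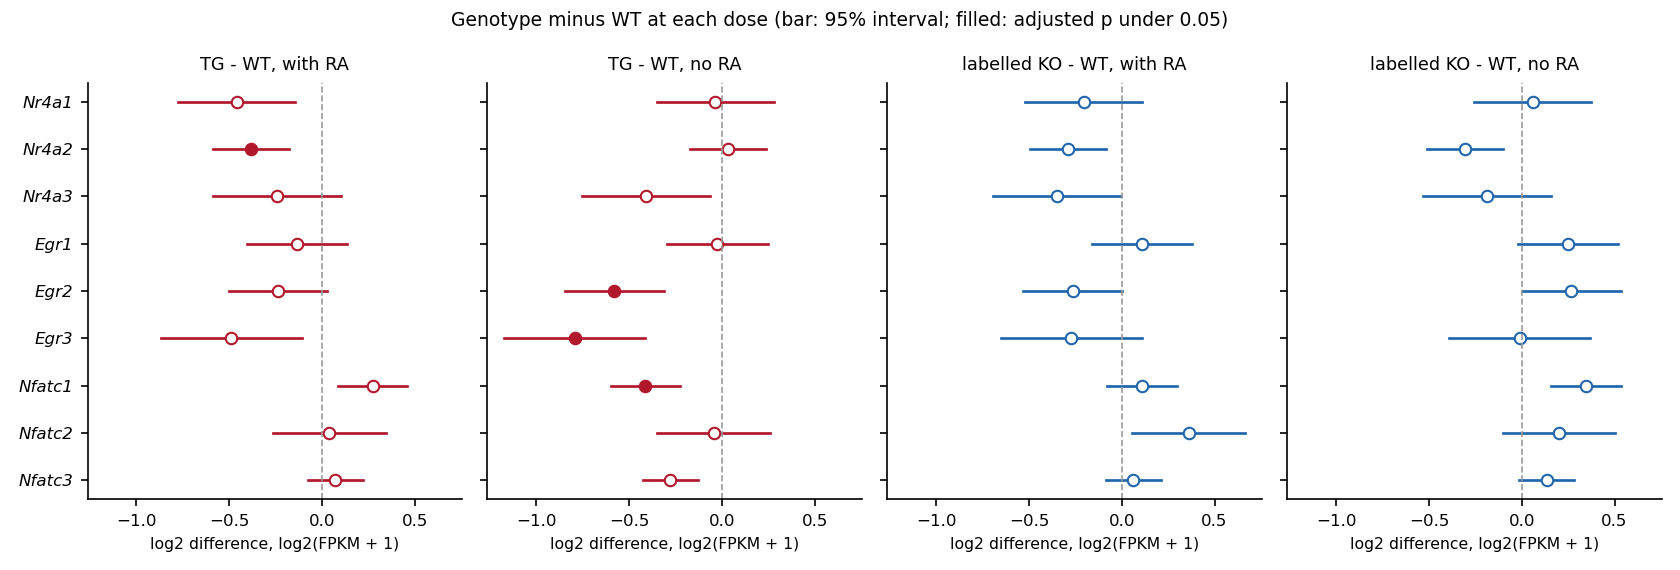
Difference from WT on the log2(FPKM + 1) scale for each of the 9 genes (rows), in TG with RA, in TG without RA, and in the libraries labelled KO with RA and without RA, with 95% intervals; filled points passed at an adjusted p under 0.05. Nfatc1 lies at 0.27 in TG with RA and at -0.41 in TG without RA, and no point passed in the libraries labelled KO.

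The order of group means differed from gene to gene. TG without RA was the lowest of the 6 groups for 6 of the genes, Nr4a3, Egr1, Egr2, Egr3, Nfatc1 and Nfatc3, and the highest for Nr4a2. Its libraries did not overlap with those of the next group up for Egr2, Egr3, Nfatc1 and Nfatc3, but did for Nr4a3 and Egr1. For Egr2 from high to low the order was WT with RA (43.9 ± 7.32 FPKM), TG with RA (36.8 ± 1.51), KO with RA (36.2 ± 3.77), KO without RA (32.3 ± 2.80), WT without RA (26.6 ± 1.25) and TG without RA (17.5 ± 0.969; SD, n = 2 each). Of its neighbours, TG with RA overlapped KO with RA, and KO with RA overlapped KO without RA. For Nfatc1 the order was TG with RA (23.4 ± 1.62 FPKM), KO with RA (20.7 ± 0.151), WT with RA (19.2 ± 0.645), KO without RA (19.1 ± 1.14), WT without RA (14.8 ± 0.0599) and TG without RA (10.9 ± 1.35). Only WT with RA and KO without RA overlapped there. For Nfatc3 the 3 groups with RA and KO without RA lay within 29.1 to 30.6 FPKM and overlapped as neighbours. For Nr4a3 and Egr1 every pair of neighbours overlapped. Between groups, the highest mean was 2.51 times the lowest for Egr2, 2.14 times for Nfatc1 and 2.13 times for Egr3, against 1.29 times for Egr1 and 1.35 times for Nr4a3.

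**Figure D5:**
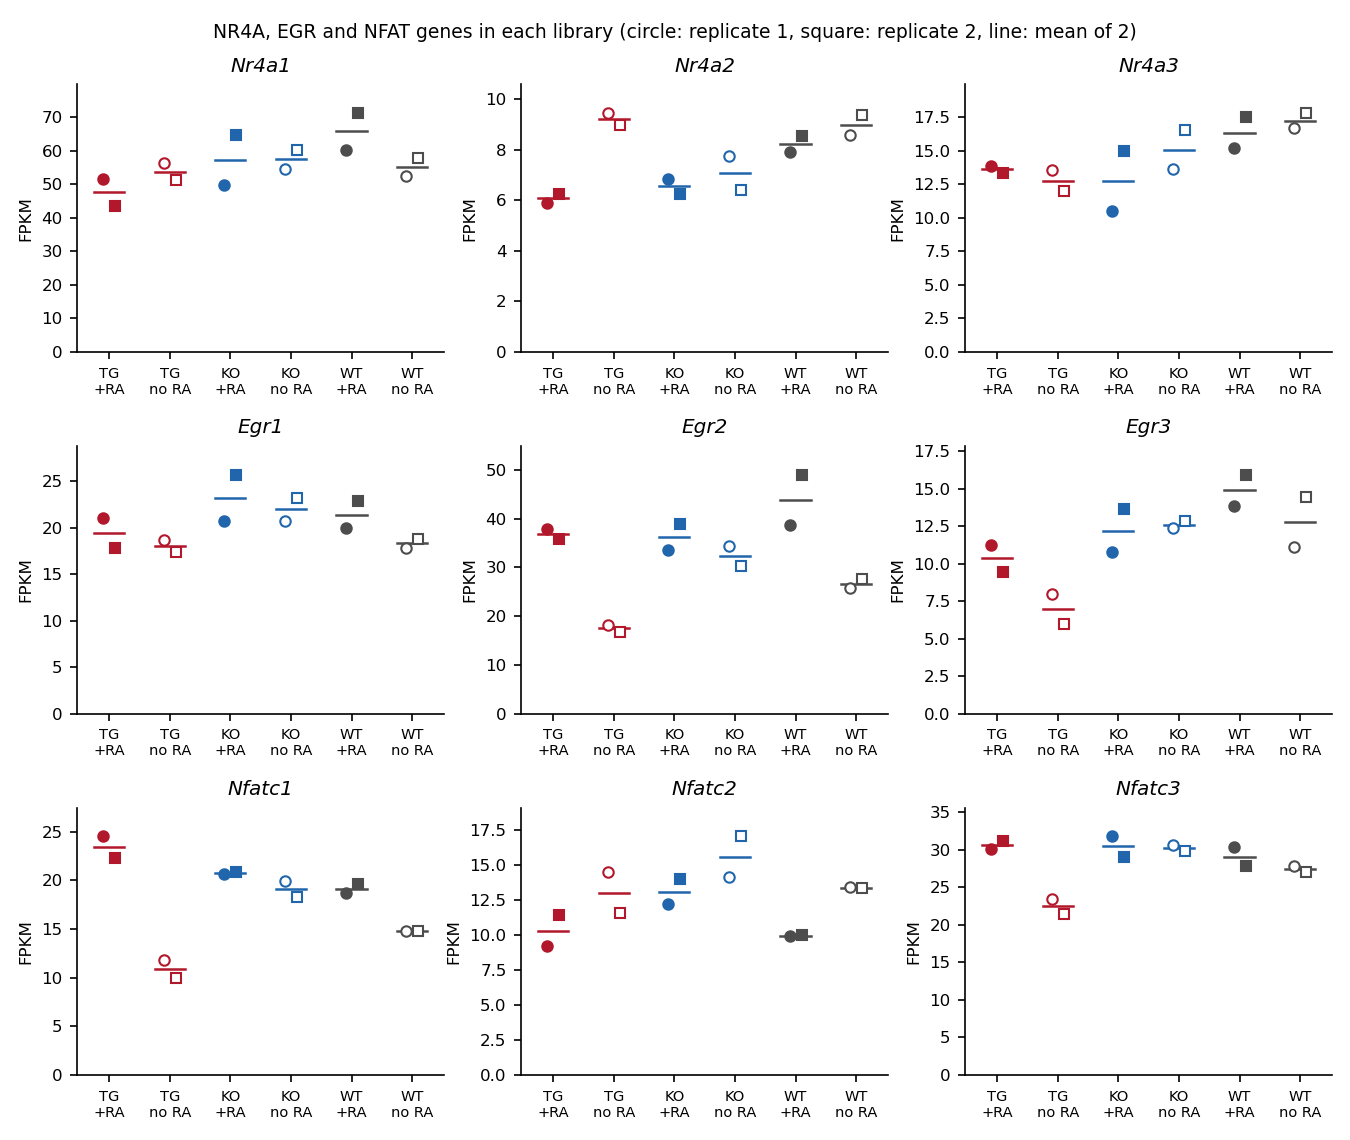
FPKM of each of the 9 genes in every library, by group, with replicate 1 as a circle, replicate 2 as a square and the mean of 2 as a line; filled symbols are cultures with RA. For Egr2, Egr3, Nfatc1 and Nfatc3 both libraries of TG without RA lie below all other libraries, for Egr2 at 18.2 and 16.8 FPKM.

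The relatives outside the set followed different courses. Nfat5, whose product lacks the calcineurin-binding part of the other NFAT proteins and answers to osmotic stress, stood at 17.6 and 22.7 FPKM in TG with RA, against 10.4 and 8.20 FPKM in TG without RA. The TG groups did not overlap, and Nfat5 rose by 1.04 ± 0.15 (limma adjusted p = 0.00093). In WT it stood at 9.92 and 10.3 FPKM with RA, against 8.80 and 9.47 FPKM without RA (0.13 ± 0.15, adjusted p = 0.65), and its RA effect in TG exceeded that in WT by 0.90 (adjusted p = 0.042). This test of the difference did not pass without any 1 of 6 of the 8 libraries (0.73 to 0.95), those being all 4 of WT and replicate 2 of each TG group, nor with no filter on low values (adjusted p = 0.094) or with the TG and WT libraries alone in the fit (0.057). Nfatc4 was at most 0.0431 FPKM and Egr4 at most 0.183 FPKM, and neither was tested. Nab1 and Nab2 encode corepressors that bind EGR proteins, and neither passed with RA in TG (0.11, adjusted p = 0.40, and -0.32, adjusted p = 0.099) or in WT (0.04 and 0.17). With the TG libraries alone in the fit, Nab2 passed in TG (adjusted p = 0.031). Between TG and WT with RA, Nab1 was higher in TG by 0.35 ± 0.09 (limma adjusted p = 0.046), while Nab2 did not pass (-0.34, adjusted p = 0.16).

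Upstream of NFAT, most tested genes of calcineurin and of calcium entry did not pass with RA in TG. Those that passed went in both directions. Of all tested genes, 39.1% passed with RA in TG and 10.1% in WT, and the counts of the lists stand beside these shares. Of 10 tested genes of calcineurin and its regulators, 1 was higher and 2 were lower in TG (median -0.13, against -0.02 over all tested genes) and 0 higher and 1 lower in WT (median -0.01, against 0.02). Ppp3r1, the calcineurin B subunit, stood at 78.3 and 76.8 FPKM in TG with RA, against 58.6 and 61.7 FPKM in TG without RA (0.36 ± 0.05, limma adjusted p = 0.00056). Calm2, a calmodulin gene, fell by 0.39 ± 0.09 (adjusted p = 0.011), a call lost without either TG library with RA (-0.38 and -0.39) or replicate 2 of TG without RA (-0.35). Of 11 tested genes of store-operated calcium entry, 3 were higher and 0 lower in TG (median 0.23) and 0 passed in WT (median 0.20). Among them Stim2, a sensor of stored calcium, rose by 0.63 ± 0.10 (adjusted p = 0.0016), and the IP3 receptor gene Itpr1 rose by 0.68 ± 0.12 (adjusted p = 0.0026). Of 8 tested kinases and partners that return NFAT to the cytoplasm or bind it, 3 were higher and 1 lower in TG (median 0.13). Csnk1a1, a casein kinase, rose by 0.34 ± 0.05 (adjusted p = 0.00069), and Homer3, a scaffold that competes with calcineurin for NFAT, rose by 0.58 ± 0.09 (adjusted p = 0.0010). None of these genes passed with RA in the libraries labelled KO.

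Among factors upstream of EGR and NR4A genes, a list that holds activators and repressors, some rose and some fell. Of 14 tested SRF, TCF, MEF2 and CREB family genes and class IIa deacetylases, 4 were higher and 2 lower in TG (median 0.07) and 2 were higher and 1 lower in WT (median 0.06). The shares over all tested genes were 39.1% in TG and 10.1% in WT. Elk1, an SRF partner, stood at 20.0 and 21.8 FPKM in TG with RA, against 7.91 and 7.69 FPKM in TG without RA, and rose by 1.32 ± 0.07 (limma adjusted p = 1.8e-06). Crem, which encodes activators and repressors at the cAMP response element, stood at 3.18 and 2.50 FPKM in TG with RA, against 15.1 and 15.7 FPKM in TG without RA, and fell by 2.10 ± 0.10 (adjusted p = 1.3e-06). In WT both passed in the same directions, Elk1 with 0.65 ± 0.07 (adjusted p = 0.0010) and Crem with -0.82 ± 0.10 (adjusted p = 0.0019).

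Other immediate-early genes moved in both directions. Of 17 tested, 4 were higher and 8 lower with RA in TG (median -0.27) and 1 was higher and 3 lower in WT (median -0.13). Here too the shares over all tested genes were 39.1% in TG and 10.1% in WT. Jun stood at 53.4 and 52.9 FPKM in TG with RA, against 20.7 and 18.0 FPKM in TG without RA, and rose by 1.42 ± 0.08 (limma adjusted p = 4.3e-06). Fosl2 fell by 1.05 ± 0.07 (adjusted p = 8.3e-06) and Klf6 fell by 1.09 ± 0.17 (adjusted p = 0.0011). Of 10 activation markers, 2 were higher and 7 lower in TG (median -0.55) and 1 was higher and 4 lower in WT (median -0.16). Cd69, an early surface marker, rose to 27.9 and 27.5 FPKM in TG with RA, against 13.8 and 10.8 FPKM in TG without RA (adjusted p = 3.3e-05), and Tnfrsf9, which encodes the costimulator 4-1BB, rose by 2.50 ± 0.14 (adjusted p = 3.9e-06). The IL-2 receptor gene Il2ra fell by 0.88 ± 0.07 (adjusted p = 2.0e-05) and Irf4 fell by 0.71 ± 0.05 (adjusted p = 8.3e-06).

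Genes linked to the 3 families as targets or in anergy also split. Of 10 tested genes reported as NFAT targets, 3 were higher and 2 lower with RA in TG (median -0.13) and 1 was higher and 2 lower in WT (median -0.02). Pdcd1, which encodes PD-1, stood at 89.9 and 73.7 FPKM in TG with RA, against 35.1 and 31.5 FPKM in TG without RA, and rose by 1.27 ± 0.16 (limma adjusted p = 0.00042). Il21, a cytokine gene, fell by 0.56 ± 0.06 (adjusted p = 0.00024). Of 14 tested anergy genes linked to EGR2, EGR3 and NFAT, 8 were higher and 3 lower in TG (median 0.33) and 5 were higher and 1 lower in WT (median 0.22). Dgkz, a kinase that ends diacylglycerol signals, rose in TG by 0.70 ± 0.04 (adjusted p = 4.5e-06) and Bhlhe40 by 1.25 ± 0.14 (adjusted p = 0.00021). Of 9 tested genes linked to NR4A proteins, 4 were higher and 4 lower in TG (median 0.30) and 2 were higher and 2 lower in WT (median 0.20). Foxp3, the factor of regulatory T cells, stood at 89.4 and 97.2 FPKM in TG with RA, against 3.66 and 4.29 FPKM in TG without RA, and rose by 4.25 ± 0.25 (adjusted p = 4.9e-06). Entpd1, which encodes CD39, fell by 1.78 ± 0.11 (adjusted p = 6.0e-06). Rxra, which encodes a partner of NR4A proteins and of RARα, fell by 1.38 ± 0.13 (adjusted p = 7.0e-05), while Rxrb did not pass in TG. Of all tested genes, 39.1% passed in TG and 10.1% in WT. Whether any of these lists passed more often than all genes was not tested. The lists were also chosen with earlier results of these data known.

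For each gene, the tested genes whose log2(FPKM + 1) values followed it most closely were found by Pearson's r over the 12 libraries, which share their groups and depth, so r is a description only. Egr2 was followed by Fcrl1 (r = 0.972) and Xcl1 (0.971), and Egr3 by Gramd1b (0.974) and Inpp5d (0.947). Xcl1, a chemokine gene, stood at 47.2 and 29.1 FPKM in TG with RA, against 2.91 and 1.57 FPKM in TG without RA. Nfatc1 was followed by Sidt2 (0.985) and Tmsb4x (0.983), and Nfatc3 by Scaf8 (0.984) and Tbl1x (0.966). Tmsb4x, which encodes the actin-binding thymosin β4, stood at 1462 and 1493 FPKM in TG with RA, against 403 and 363 FPKM in TG without RA. Nr4a2 was followed by Nptxr (0.945) and Chml (0.940), Nr4a3 by Pde8a (0.932) and Hnrnpul2 (0.865), and Nfatc2 by Usp40 (0.907) and Hnrnpd (0.853). Egr1 was followed by Higd2a (0.909) and Osbpl3 (0.899), and Nr4a1 by Taf6 (0.899) and Ncaph2 (0.851). The closest partners of Egr1, Nr4a1 and Nfatc2 were less close than those of Egr2, Nfatc1 and Nfatc3. No member was among the 2 closest partners of another.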

How the data were processed

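RNA-seq of 12 libraries was analysed. Per the labels' protocols, stranded libraries were sequenced as single reads. The authors deposited FPKM per gene in 1 table. STAR, DESeq2, HTSeq 0.6.1 and Trimmomatic 0.32 and the builds mm10 and GRCm38.p5 are listed, without an order of steps, in the submitters' processing notes. The annotation release is not given in the sources used here, and the exon lengths of GENCODE M21 gave whole reads for 7 of the 9 genes. For the other 2, Nr4a1 and Nfatc1, other lengths did (2474 and 7433 bases in place of 3509 and 7469), so the authors' gene models differ from M21 there.

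Depth was read from the step of 1 read, and 95.3 to 95.9% of values of up to 20 reads lay within 0.02 of a whole number. The 11922 genes that reached an FPKM of 1 in 2 or more libraries were fitted with limma 3.58.1 in R 4.3.3 on log2(FPKM + 1), with a trend and 1 mean for each of 6 groups (6 residual and 2.51 prior degrees of freedom). Two-sided p-values were adjusted over these genes by Benjamini-Hochberg, separately in each of 9 comparisons, at a threshold of 0.05. The log scale understates changes of low genes. No 2 libraries were identical. The replicate number was not used as a block. The alternatives tried were upper-quartile scaling, 0.1 as the pseudocount, no filter on low values (25908 genes), only the libraries compared, the replicate number as a block, limma voom on recovered reads (11905 genes) and leaving out each library. The code was tested on simulated data. All 9 members are named, with up to 4 genes of each list by smallest p for RA in TG, up to 3 for RA in WT (of these, those that help the account), and the 2 genes most like each member. Some genes that these rules name are left out of the text. The members, lists and rules were chosen with earlier results of these data known. Promoter windows came from RefSeq on GRCm38.p6, where 6 of the 9 genes matched.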

Additional observations from a re-analysis of the deposited data

Results flagged for a closer look

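The RA effect on Nfatc1 differed between TG and WT by 0.69 (TG minus WT, log2 scale), by the test of the difference itself. The RA effect on Nfat5 differed between TG and WT by 0.90 in the same test, a call that was lost with no filter on low values, with the TG and WT libraries alone in the fit, and without any 1 of 6 of these 8 libraries.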

How the results depend on the processing

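For 9 genes in 9 comparisons (81 results), all 81 kept their direction and side of the threshold with a pseudocount of 0.1, and 80 with upper-quartile scaling, where the RA difference of Nfatc3 in the libraries labelled KO was -0.00376 in place of 0.0098. The count of genes past the threshold for RA in WT (2) was 1 with no filter and 0 with only the libraries compared. For RA in TG (5) it was 4 under each of these. For TG against WT it was 0 under each of these without RA (3) and with RA (1). The deviations of same-numbered libraries correlated at 0.147 to 0.327 between the doses of a genotype and at 0.0035 to 0.206 between genotypes. In TG each number had its own sex. Cd74 also followed the number at both doses. With and without RA it stood in WT at 12.4 and 12.7 FPKM in replicate 1, against 84.7 and 82.7 FPKM in replicate 2. In the libraries labelled KO these were 12.8 and 13.5 against 40.5 and 37.9 FPKM, and in TG 16.0 and 15.7 against 21.8 and 26.2 FPKM. The numbers were not taken as pairs, since the labels do not say what they mark, and the RA tests were unpaired. The correlations under 0.1 were all between genotypes and do not speak against pairing the doses within a genotype. A fit with such pairs was not run. The replicate block gave 1 gene for KO against WT without RA (Nfatc1, adjusted p = 0.047), 4 and 2 for TG against WT without and with RA, and 2 for the RA effect in TG minus WT. Limma voom gave 4 for TG against WT without RA and 2 for the RA effect in TG minus WT. The gene added was Nfatc3 in both, and in the block also Nfatc1 for TG against WT with RA. No count for RA within a genotype changed under the block, where Nab2 passed for RA in TG (adjusted p = 0.018). The block takes out only a shift common to all groups. Its unchanged counts therefore do not show what pairing within each genotype would give. Leaving out 1 library gave counts of 0 to 1 for RA in WT, 4 to 5 for RA in TG, 0 to 2 for TG against WT without RA and 0 with RA, and 1 for the RA effect in TG minus WT. It turned 32 directions, all of results that had not passed. For Egr1 the ranges were -0.0399 to 0.26 (KO against WT with RA), -0.0777 to 0.22 (RA in KO), -0.013 to 0.22 (RA in TG), -0.0729 to 0.0237 (TG against WT without RA), and -0.29 to 0.0090 and -0.22 to 0.0058 (RA effect, KO and TG minus WT). For Egr3 they were -0.19 to 0.16 (KO against WT without RA) and -0.21 to 0.10 (RA in KO). For Nfatc2 they were -0.20 to 0.11 and -0.10 to 0.18 (TG against WT without and with RA) and -0.0697 to 0.24 (RA effect, TG minus WT), and for Nfatc3 -0.0530 to 0.0727 (RA in KO). For Nr4a1 they were -0.010 to 0.13 and -0.10 to 0.0320 (KO and TG against WT without RA) and -0.20 to 0.17 (RA in KO). For Nr4a2 they were -0.22 to 0.0282 (RA in KO), -0.0251 to 0.0916 (TG against WT without RA) and -0.10 to 0.14 (RA effect, KO minus WT), and for Nr4a3 -0.17 to 0.0225 (RA in WT) and -0.40 to 0.0719 (RA effect, KO minus WT). The causes were not tested. With 2 libraries a group and at least 402 reads a gene, both the spread between libraries and, most for Nr4a2, counting limit these results.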
